A study of Mus musculus with 6 samples.

Results

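The 49 genes described here encode the machinery that copies the genome and divides it. Of these, 25 are listed under DNA replication (origin licensing, the replication fork, nucleotide supply and the transcription factors E2f1 and Mybl2). Mybl2 is counted there although it acts on G2 and mitosis genes. The other 24 are listed under mitosis (cyclins and their phosphatases, mitotic kinases, the spindle checkpoint, chromosome and spindle proteins). All 49 were taken by name from lists of known roles, with no cutoff on a measured value. The lists were, however, written with earlier results of these data known. Of the 49, 47 had at least 1 probe carrying their name on the bead array, 98 probes in all, and 38 passed the detection filter and were tested among 8651 genes. The tested members were 21 of the replication genes and 17 of the mitosis genes. Total RNA of 2 mouse pluripotent lines was measured on 1-colour Illumina bead arrays, 3 arrays per line, and every difference below is i2PS minus E14TG2A.

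The i2PS cells came from BALB/c mouse liver, from hepatocytes that were brought to pluripotency inside the animal. E14TG2A is an embryonic stem cell line of the Sv129 strain, derived from the inner cell mass of the blastocyst and bought from ATCC. Both were first grown on feeder layers of mouse embryonic fibroblasts, with LIF, the cytokine that holds mouse stem cells undifferentiated, in DMEM, and were then moved to gelatin and passaged until the feeders were gone. Each name stands for 1 line, so strain, tissue of origin, reprogramming and culture history cannot be told apart in any difference between them. The study calls the 3 samples of a line biological replicates without saying whether they came from separate cultures, so the p-values measure the spread between these samples, which may be technical.

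Before S phase, the origin recognition complex, CDC6 and CDT1 load the MCM helicase onto DNA, a step called licensing, and geminin blocks CDT1 afterwards so that each origin fires once. CDC45, the GINS complex and MCM10 then turn the loaded helicase into a moving fork, where PCNA clamps the polymerases to the template. Entry into mitosis depends on cyclin-bound CDK1, released by CDC25 phosphatases, and exit depends on the anaphase-promoting complex with CDC20. Mouse embryonic stem cells divide fast, with a short G1 phase, and keep many of these genes at high levels. Promoters of S phase genes often carry E2F sites, and promoters of G2 and mitosis genes often carry a CHR element (cell cycle genes homology region) close to CCAAT boxes.

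The 160 bases before the start of transcription are shown for 8 genes whose expression results are described below, because the replication and mitosis genes differ in these letters. Sequences are RefSeq's, build GRCm38.p6, 5′ to 3′ in the direction of the gene. The start is the one given with each promoter sequence. For Mcm5 and Cenpa it lies downstream of the first base listed for the gene (75109468 and 30666877). The last bases of these stretches are therefore inside the gene as listed. Capitals mark every match, on either strand, to CCAAT, to the CHR letters TTTGAA or TTCGAA, or to an E2F site (TTTCGCGC, TTTCCCGC, TTTGGCGC or TTTGCCGC). The mitosis genes are Cdc20 (chr4:118437344-118437503 on the minus strand), Ccnf (chr17:24251410-24251569 on the minus strand), Kif11 (chr19:37376222-37376381 on the plus strand) and Cenpa (chr5:30666726-30666885 on the plus strand).
Cdc20: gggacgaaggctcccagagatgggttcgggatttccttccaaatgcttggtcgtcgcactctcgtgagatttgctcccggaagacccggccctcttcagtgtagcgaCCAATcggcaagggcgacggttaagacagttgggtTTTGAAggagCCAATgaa
Ccnf: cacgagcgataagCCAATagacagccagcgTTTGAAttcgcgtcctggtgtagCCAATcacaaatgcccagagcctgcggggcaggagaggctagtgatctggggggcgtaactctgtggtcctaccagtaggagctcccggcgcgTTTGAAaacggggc
Kif11: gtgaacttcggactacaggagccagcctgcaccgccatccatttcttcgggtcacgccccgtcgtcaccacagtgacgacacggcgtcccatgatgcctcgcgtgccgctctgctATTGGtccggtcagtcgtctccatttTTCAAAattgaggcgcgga
Cenpa: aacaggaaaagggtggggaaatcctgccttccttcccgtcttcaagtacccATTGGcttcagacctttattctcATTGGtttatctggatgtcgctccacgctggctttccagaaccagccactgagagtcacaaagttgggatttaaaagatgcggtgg

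The replication genes are Mcm2 (chr6:88898781-88898940 on the minus strand), Mcm3 (chr1:20820313-20820472 on the minus strand), Mcm5 (chr8:75109349-75109508 on the plus strand) and Mcm10 (chr2:5012792-5012951 on the minus strand).
Mcm2: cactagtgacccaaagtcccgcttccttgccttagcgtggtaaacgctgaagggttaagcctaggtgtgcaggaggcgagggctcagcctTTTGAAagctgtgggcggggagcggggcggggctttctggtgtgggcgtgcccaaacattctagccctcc
Mcm3: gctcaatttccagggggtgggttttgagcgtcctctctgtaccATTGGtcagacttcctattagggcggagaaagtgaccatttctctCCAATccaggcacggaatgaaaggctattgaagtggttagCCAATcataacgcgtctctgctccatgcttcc
Mcm5: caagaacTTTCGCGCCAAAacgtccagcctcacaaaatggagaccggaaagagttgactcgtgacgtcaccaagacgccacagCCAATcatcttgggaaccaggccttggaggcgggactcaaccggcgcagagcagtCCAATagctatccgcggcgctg
Mcm10: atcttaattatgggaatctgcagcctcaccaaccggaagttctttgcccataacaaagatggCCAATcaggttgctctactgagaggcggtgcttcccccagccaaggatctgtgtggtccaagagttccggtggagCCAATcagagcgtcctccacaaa

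In Cdc20 the CHR letters begin 18 bases before the start, between CCAAT boxes that begin at -53 and -8. Kif11 has CHR letters at -19 and a single CCAAT box at -45, both on the opposite strand. Ccnf holds CHR letters at -130 and -14, and the CHR match of Cenpa lies after the start, at 17, outside the printed stretch. Mcm5 carries E2F letters at -153 that overlap a match on the other strand at -149, while the E2F matches of Mcm3 lie after the start, at 20 and 39. Mcm2 is the replication gene of the 8 that has CHR letters, at -70, and Mcm10 has CCAAT boxes alone.

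The wider window of 300 bases, from 250 before to 50 after the start, was given for 42 members, 21 of each class. CHR letters occurred in 15 of the 21 mitosis promoters (71.4%) and in 3 of the 21 replication promoters (14.3%), against 16% of the 7054 tested genes with a promoter and 21.7% of all 27025 genes with one. All 15 mitosis promoters with CHR letters also held a CCAAT box, a pairing found in 8.22% of tested genes. CCAAT boxes stood in 90.5% of mitosis and 71.4% of replication promoters, against 44.0% of tested genes. E2F letters showed the opposite order, in 9 replication promoters (42.9%) and 2 mitosis promoters (9.52%), against 5.13% of tested genes. A match describes letters in this window and is not a measured binding site.

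**Figure D1:**
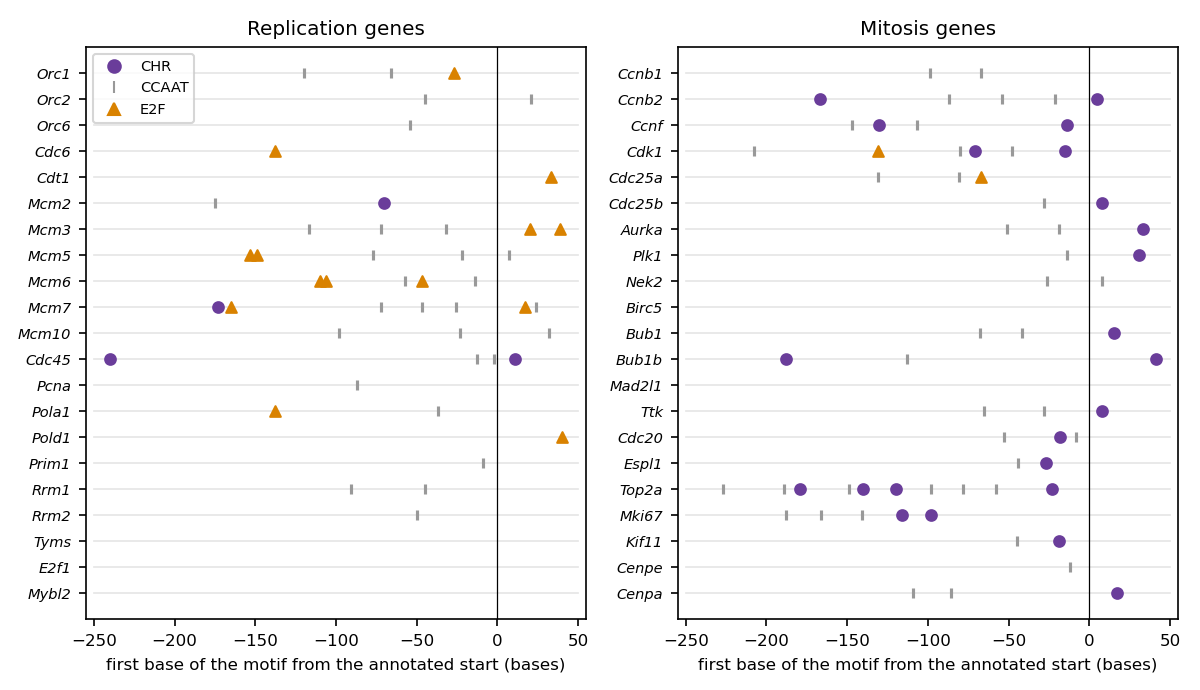
Matches to CHR, CCAAT and E2F letters in the promoters of the 42 members with a sequence, each promoter a line and each match a mark at its distance in bases from the start of transcription. CHR marks gather in the mitosis genes, 15 of 21 against 3 of 21 replication genes, and E2F marks in the replication genes, 9 of 21 against 2 of 21.

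CHR letters were present in mitosis members that were lower, that were higher and that did not pass. All 5 mitosis members that were lower in i2PS cells and had a promoter sequence held CHR letters, but so did Cenpa, the mitosis member that was higher. The letters were also present in 6 of the 9 mitosis members that passed in neither direction. E2F letters occurred in 0 of 2 higher, 2 of 4 lower and 6 of 12 replication members that did not pass. Whether promoter letters go with the difference between the lines was not tested.

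Mean raw signal over the 45281 probes was 340 to 357 on the i2PS arrays and 359 and 403 on E14TG2A replicates 2 and 3, but 228 on E14TG2A replicate 1, a dimmer array on which 13994 probes were detected, the fewest of the 6, against 14953 to 15922 on the other arrays. It was kept. Without it 5 members passed that otherwise did not (Orc6, Rrm1, Cdc25b, Plk1 and Birc5), and Pcna no longer passed. The share of all tested genes that passed was then 47.6%, beside 43.7% with all arrays. All 9 pluripotency markers (Pou5f1, Nanog, Sox2 and others) were detected on every array of both lines. Of 11 fibroblast markers with a probe, which would mark remaining feeders, 7 were detected on no array, Col1a2 and Col3a1 among them. Col1a1, Dcn and Pdgfra were detected on some array, and Thy1 was detected on all 6 and was higher in i2PS cells by 0.84 ± 0.16 (SE, n = 3 and 3; limma adjusted p = 0.00268); its part in the members' differences was not tested. The mean raw signal of the fibroblast list was 93.9 to 102 in i2PS and 87.3 to 102 in E14TG2A cells. Of 12 hepatocyte markers, 10 including Alb, Afp and Ttr were detected on no array.

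The replication and mitosis genes differed little between the lines. Of the 38 tested members, 3 were higher in i2PS cells (Mcm10, Pcna and Cenpa), 10 were lower (Mcm2, Mcm3, Mcm5, Gins2, Tyms, Ccnf, Aurka, Cdc20, Top2a and Kif11) and 25 did not pass (limma, Benjamini-Hochberg adjusted over all 8651 genes at 0.05). That is 34.2% of the members, beside 43.7% of all tested genes, of which 23.3% were higher and 20.4% lower. The median difference of the members was -0.024 on the log2 scale, beside 0.033 for all tested genes, and single members ranged from -0.89 (Ccnf) to 0.49 (Cenpa). For 37 of the 38, the 95% confidence interval of the difference lay inside a 2-fold change in either direction, which held for 80.8% of all tested genes. Ccnf was the exception. No member passed the test with a difference over 2-fold, a size that 675 of all tested genes reached. With the arrays scaled to equal medians in place of quantile normalisation, no member passed, 1 had an unadjusted p under 0.05, and 7.33% of all genes passed.

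The values of the 3 arrays of one line lay wholly above or below those of the other for 15 members (39.5%), 4 with i2PS cells above and 11 below, beside 55.8% of all tested genes (30.2% above and 25.6% below). All members that passed were among these except Pcna. A total RNA sample cannot tell fewer cells in a phase of the cycle from less RNA of the gene per cell.

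**Figure D2:**
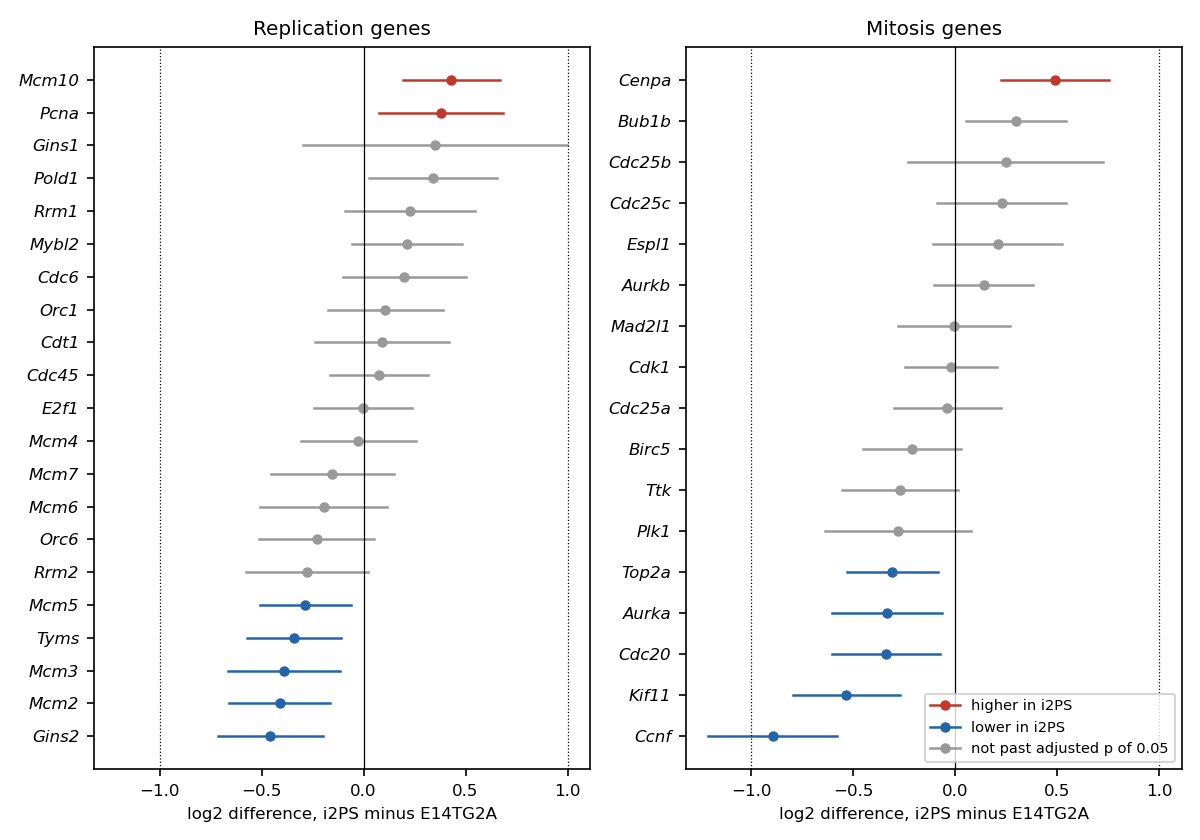
Differences of the 38 tested members, i2PS minus E14TG2A on the log2 scale, with 95% confidence intervals, replication genes in one panel and mitosis genes in the other. Most points sit within 0.5 of 0, and the interval of Ccnf, at -0.89, is the one that reaches past a 2-fold change.

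The 11 tested genes listed under licensing include Mcm10, although it acts after the helicase is loaded. Of the 11, Mcm10 was higher and the helicase subunits Mcm2, Mcm3 and Mcm5 were lower in i2PS cells. The other 3 subunits and the loading factors did not pass. The median difference of the 11 was -0.15. Mcm2 (chr6:88883474-88898780), one of the 6 subunits of the ring-shaped helicase, had normalised log2 intensities of 11.64, 11.46 and 11.37 on E14TG2A arrays 1 to 3 and of 11.12, 11.04 and 11.08 on i2PS arrays 1 to 3. Every i2PS array was below every E14TG2A array, and the difference was -0.41 ± 0.11 (SE, n = 3 and 3), or 1.33-fold lower (limma adjusted p = 0.0141).

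Mcm3, another subunit, read 10.28, 10.12 and 10.09 in E14TG2A cells and 9.96, 9.62 and 9.75 in i2PS cells. The groups did not overlap, and the difference was -0.39 ± 0.12 (SE, n = 3 and 3; limma adjusted p = 0.028). Mcm5, on chromosome 8, read 12.92, 12.98 and 13.02 in E14TG2A cells and 12.66, 12.72 and 12.68 in i2PS cells, without overlap. Its difference was -0.29 ± 0.10 (SE, n = 3 and 3; limma adjusted p = 0.0415), or 1.22-fold lower.

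The other subunits did not pass: Mcm6 differed by -0.19 ± 0.14, Mcm7 by -0.15 ± 0.13 and Mcm4 by -0.03 ± 0.12 (SE, n = 3 and 3), each with overlapping groups. The interval for Mcm4, -0.31 to 0.26, excludes a difference as large as the one measured for Mcm2. All 6 subunits had a negative difference, with a median of -0.24, and only arrays scaled to equal medians turned a sign among the scaling alternatives, of Mcm4 to 0.16 and Mcm7 to 0.03, where the median of all genes also moved, from 0.033 to 0.187. Mcm2 no longer passed without i2PS replicate 2 or 3 (adjusted p = 0.0520 to 0.0542). Nor did Mcm3 without E14TG2A replicate 2 or i2PS replicate 2 or 3 (0.0549 to 0.116), and Mcm5 passed with E14TG2A replicate 1 left out but with no other array left out (0.0929 to 0.125).

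Mcm10 (chr2:4990724-5012791), which is not part of the ring but helps it start unwinding, moved the other way. It read 11.27, 11.09 and 11.21 in E14TG2A cells and 11.54, 11.69 and 11.63 in i2PS cells, with every i2PS array above. The difference was 0.43 ± 0.11 (SE, n = 3 and 3), or 1.35-fold higher (limma adjusted p = 0.00973), and it passed with each array left out in turn. Orc1 and Orc6, subunits of the origin recognition complex, differed by 0.11 ± 0.13 and -0.23 ± 0.12 and did not pass, and the arrays overlapped. Without E14TG2A replicate 1 the difference of Orc6 was -0.35 and passed (limma adjusted p = 0.0174). The loaders Cdc6 and Cdt1 differed by 0.20 ± 0.13 and 0.09 ± 0.15 and did not pass either (SE, n = 3 and 3 for each).

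At the replication fork, with Mcm10 not counted, 1 of 5 tested members was higher and 1 was lower. The median difference was 0.34, which was 0.11 without the dim E14TG2A replicate 1. Gins2, a subunit of the GINS complex that travels with the helicase, read 10.34, 10.26 and 10.30 in E14TG2A cells and 10.01, 9.81 and 9.70 in i2PS cells. The lines did not overlap, and the difference was -0.46 ± 0.11 (SE, n = 3 and 3; limma adjusted p = 0.0106), 1.37-fold lower. Without i2PS replicate 3 its adjusted p was 0.0544, and the mean of its 3 probes, of which the others differed by -0.31 and -0.03, gave -0.27 and did not pass (limma adjusted p = 0.0736). Its partner Gins1 showed no comparable separation: it read 7.0, 8.18 and 8.07 in E14TG2A cells and 8.43, 7.94 and 7.94 in i2PS cells, where the lowest value came from the dim array, and the difference of 0.35 ± 0.29 (SE, n = 3 and 3) did not pass and was -0.02 without that array.

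Pcna, the sliding clamp, read 6.71, 6.95 and 6.65 in E14TG2A cells and 7.32, 6.95 and 7.17 in i2PS cells, so that the second array of each line met. The difference of 0.38 ± 0.13 (SE, n = 3 and 3) was close to the threshold (limma adjusted p = 0.045) and was lost without E14TG2A replicate 1 or 3 or i2PS replicate 1 or 3 (0.0708 to 0.149). It was 0.23 without background correction. Pold1, the catalytic subunit of polymerase delta, read 9.62, 10.12 and 10.00 in E14TG2A cells and 10.27, 10.29 and 10.22 in i2PS cells. Every i2PS array was above every E14TG2A array, but the difference of 0.34 ± 0.14 (SE, n = 3 and 3) did not pass (limma adjusted p = 0.0744). It was 0.19 without E14TG2A replicate 1, while leaving out replicate 2 let it pass at 0.45 (limma adjusted p = 0.0422). Cdc45, the helicase partner that marks an active fork, differed by 0.08 ± 0.11.

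Of the nucleotide supply enzymes, Tyms passed. Tyms makes thymidylate, and it read 11.44, 11.59 and 11.46 in E14TG2A cells and 11.17, 11.12 and 11.19 in i2PS cells, without overlap. The difference was -0.34 ± 0.10 (SE, n = 3 and 3; limma adjusted p = 0.0236), 1.27-fold lower, and its adjusted p was 0.0557 to 0.0844 without E14TG2A replicate 2 or any 1 of the i2PS arrays and 0.0693 with the mean of its probes. The ribonucleotide reductase subunits Rrm1 and Rrm2 differed by 0.23 ± 0.14 and -0.28 ± 0.13 (SE, n = 3 and 3), and neither passed. Another Rrm1 probe, detected on all arrays, had every i2PS array above every E14TG2A array. It differed by 0.39 ± 0.14 and passed in a fit of single probes (limma adjusted p = 0.0468). Rrm1 passed without E14TG2A replicate 1, at 0.37, and Rrm2 without i2PS replicate 1, at -0.40 (limma adjusted p = 0.0198 and 0.0394). The transcription factors of the set did not pass: E2f1, an activator of S phase genes, differed by -0.0030 ± 0.11, with an interval of -0.24 to 0.24, and Mybl2, which acts on G2 and mitosis genes, by 0.21 ± 0.12.

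Cyclin F had the largest difference among the tested members. Ccnf encodes an F-box protein that marks other proteins for degradation and, unlike other cyclins, does not activate a CDK, and its gene lies at chr17:24223230-24251409 in GRCm38.p6. It read 8.88, 9.24 and 9.19 on the E14TG2A arrays and 7.99, 8.32 and 8.31 on the i2PS arrays. The gap between the lines was wider than the spread within either, with a difference of -0.89 ± 0.14 (SE, n = 3 and 3), or 1.86-fold lower, and an interval of -1.21 to -0.58 (limma adjusted p = 0.000999). It passed with each array left out in turn.

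Cdk1, the kinase that drives entry into mitosis, was close to level: it read 10.79, 10.82 and 10.79 in E14TG2A cells and 10.87, 10.72 and 10.75 in i2PS cells. Its difference was -0.02 ± 0.10 (SE, n = 3 and 3), with an interval of -0.25 to 0.21. The phosphatases that activate it did not pass either, at -0.04 ± 0.12 for Cdc25a, 0.25 ± 0.21 for Cdc25b and 0.23 ± 0.14 for Cdc25c, and their arrays overlapped. Cdc25b passed without E14TG2A replicate 1, at 0.50 (limma adjusted p = 0.0435). Thus 1 of the 5 tested genes of this role was lower and none was higher.

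Of the mitotic kinases and their partner, 1 of 4 was lower. Aurka, the kinase of the spindle poles, read 11.14, 11.36 and 11.25 in E14TG2A cells and 11.09, 10.85 and 10.81 in i2PS cells, with the first array of each line nearly meeting. The difference was -0.33 ± 0.12 (SE, n = 3 and 3; limma adjusted p = 0.0473), and leaving out 1 of 4 arrays gave adjusted p-values of 0.0920 to 0.168. Aurkb, the kinase of the chromosomal passenger complex, differed by 0.14 ± 0.11, and Birc5, its partner survivin, by -0.21 ± 0.11 (SE, n = 3 and 3). Birc5 was below on every i2PS array without passing (limma adjusted p = 0.137), and it passed at -0.28 when E14TG2A replicate 1 was left out (0.0381). Plk1, which acts in spindle assembly and cytokinesis, read 10.65, 11.28 and 11.13 in E14TG2A cells and 10.69, 10.79 and 10.74 in i2PS cells. The dim array was below all the others, and the difference of -0.28 ± 0.16 (SE, n = 3 and 3) did not pass. Without that array it was -0.47 and passed (limma adjusted p = 0.00590).

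Among 5 checkpoint and anaphase genes, 1 passed. Cdc20, which directs the anaphase-promoting complex to its targets once the checkpoint is satisfied, read 12.18, 12.46 and 12.43 in E14TG2A cells and 11.98, 12.12 and 11.94 in i2PS cells. All i2PS arrays were below, by -0.34 ± 0.12 (SE, n = 3 and 3; limma adjusted p = 0.041), and each array but E14TG2A replicate 1 ended the call when left out, with adjusted p-values of 0.0602 to 0.139, while the mean of its 4 probes was -0.62 (limma adjusted p = 0.000848). Bub1b, whose product BUBR1 restrains CDC20, read 9.51, 9.77 and 9.71 in E14TG2A cells and 9.96, 9.98 and 9.93 in i2PS cells. The groups did not overlap, but the difference of 0.30 ± 0.11 (SE, n = 3 and 3) missed the threshold (limma adjusted p = 0.053). It passed without background correction (limma adjusted p = 0.0174).

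The checkpoint protein gene Mad2l1 differed by -0.0060 ± 0.12, with an interval of -0.28 to 0.27. Espl1, the separase that cuts cohesin at anaphase, differed by 0.21 ± 0.14. The checkpoint kinase gene Ttk differed by -0.27 ± 0.13 (SE, n = 3 and 3 for each) near the detection limit, its probe being detected on 3 E14TG2A arrays and 1 i2PS array, and it did not pass. Ttk was kept through the E14TG2A arrays alone, so it adds nothing to the direction of the mitosis members. With detection required on all 6 arrays, which leaves Ttk out, the median of the mitosis members was -0.031 in place of -0.040.

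All 3 tested chromosome and spindle genes passed, 1 up and 2 down, beside 43.7% of all tested genes. Cenpe and Mki67 were not tested, and another probe of Top2a passed in the opposite direction, as described below. Kif11 (chr19:37376382-37421863), the kinesin that pushes the spindle poles apart, read 10.24, 10.17 and 10.22 in E14TG2A cells and 9.86, 9.53 and 9.64 in i2PS cells. The lines did not overlap, and the difference of -0.53 ± 0.12 (SE, n = 3 and 3; limma adjusted p = 0.00541), 1.45-fold lower, passed with each array left out in turn. Top2a, the topoisomerase that untangles sister chromatids, read 11.24, 11.18 and 11.30 in E14TG2A cells and 10.90, 10.96 and 10.93 in i2PS cells. Its difference was -0.31 ± 0.10 (SE, n = 3 and 3; limma adjusted p = 0.0306), which passed with E14TG2A replicate 1 left out and with no other array left out (0.0539 to 0.0963).

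Cenpa (chr5:30666877-30674837), the histone H3 variant that marks centromeres, lay at the other end. It read 12.11, 12.34 and 12.36 in E14TG2A cells and 12.62, 12.83 and 12.82 in i2PS cells, so that the lowest i2PS array stood above the highest E14TG2A array. The difference was 0.49 ± 0.12 (SE, n = 3 and 3), or 1.40-fold higher (limma adjusted p = 0.00881), and it passed with each array left out in turn.

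**Figure D3:**
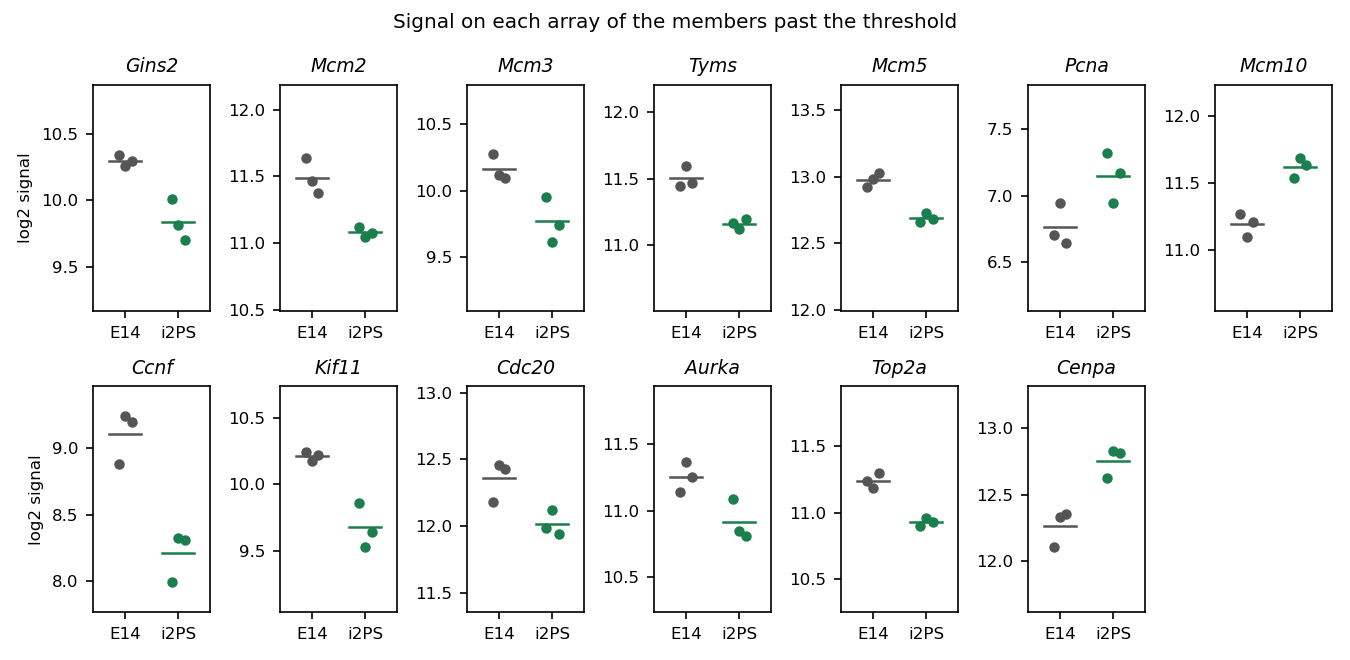
Normalised log2 intensity of the members that passed, 1 point per array and a bar at each line's mean, E14TG2A and i2PS side by side. The arrays of the lines are separate for each gene shown except Pcna, where the second array of each line meets.

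Different probes of a gene did not always give the same answer. Of the 98 member probes, 66 passed the detection filter. In a fit over all 12841 such probes, 5 member probes were higher and 13 lower. Of all probes, 40.6% passed in that fit (21.7% higher, 18.9% lower). The higher ones include a dim Cenpa probe kept through the i2PS arrays alone. The lower ones include a dim Cdc6 probe kept through the E14TG2A arrays alone. Both add nothing to the direction of these counts. Of 18 members with several probes, 13 had all of them on the same side and 5 did not (Cdc6, Mcm4, Rrm2, Mybl2 and Top2a). Cdc6 and Rrm2 are among the 5 only because of probes kept through a single line. Mcm10, Cdc25a and Cenpa, among the 13, also have such a probe. In that fit the probes that stand for Mcm5, Pcna and Aurka missed the threshold, with limma adjusted p-values of 0.0504, 0.0514 and 0.0550.

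All 4 probes of Cdc20 were lower. The probe that stands for the gene had the smallest difference, -0.34, and the other 3 had -0.63 ± 0.10, -0.71 ± 0.14 and -0.78 ± 0.13 (SE, n = 3 and 3; limma adjusted p = 0.00125, 0.00325 and 0.00131). On the probe with the widest gap the E14TG2A arrays read 11.78, 11.58 and 11.40 and the i2PS arrays 10.83, 10.74 and 10.84. The second probe of Cenpa was kept through the i2PS arrays, being detected on 3 of them and on 2 E14TG2A arrays, so it adds nothing to the direction given by the bright one.

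Top2a was the member with probes passing in both directions. Its brighter probe is the one given above, and a dimmer one, listed under a separate cDNA clone, read 6.91, 6.88 and 7.35 in E14TG2A cells and 7.51, 7.51 and 7.64 in i2PS cells. Every i2PS array was above, by 0.51 ± 0.14 (SE, n = 3 and 3; limma adjusted p = 0.0209), and the mean of both probes gave a difference of 0.098. The direction of Top2a therefore depends on the probe, and which transcripts each detects was not tested.

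Rrm2 had a bright probe reading 9.52, 9.55 and 9.73 in E14TG2A cells and 9.57, 9.22 and 9.18 in i2PS cells, which overlapped. A second read 9.23, 9.24 and 9.20 against 8.76, 8.39 and 8.41, a clear gap of -0.70 ± 0.13 (SE, n = 3 and 3; limma adjusted p = 0.00253). The remaining one, near background, differed by 0.42 ± 0.21 and did not pass, and it was kept through the i2PS arrays, where it was detected on 3 against 2. The bright probes thus both had a negative difference, and 1 of them passed.

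Cdc6 had a probe that read 8.39, 8.69 and 8.58 in E14TG2A cells and 8.96, 8.70 and 8.59 in i2PS cells, overlapping. A second, detected on all E14TG2A and no i2PS arrays, read 5.21, 4.98 and 4.94 against 4.66, 4.56 and 4.63. It was kept through the E14TG2A arrays alone, so its direction follows from the filter, and its level in i2PS cells is only bounded from above.

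**Figure D4:**
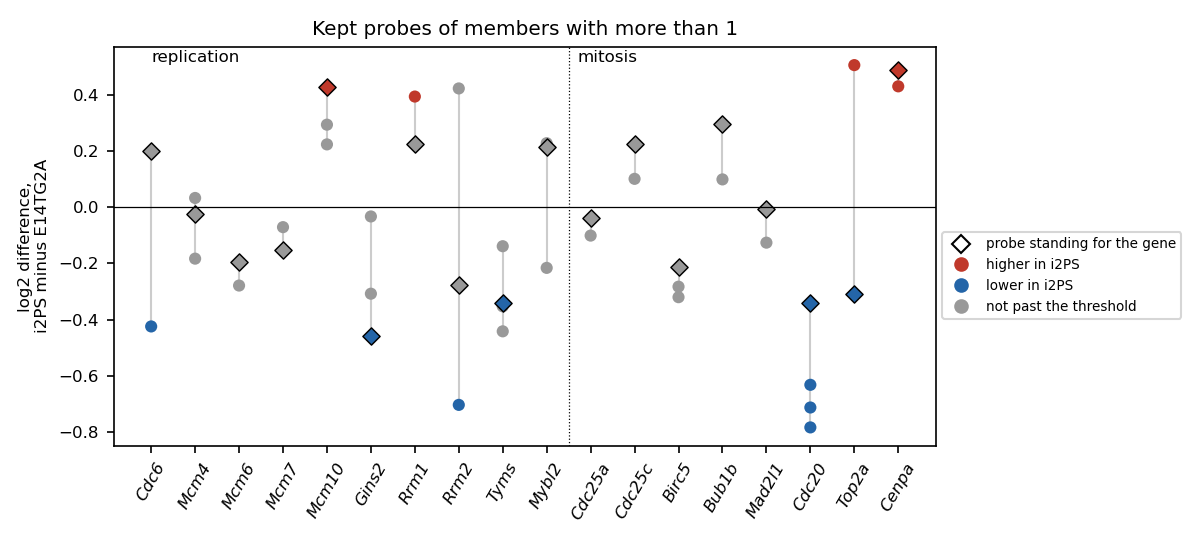
Differences of the kept probes of the 18 members with several, i2PS minus E14TG2A on the log2 scale, 1 point per probe with the probe that stands for the gene marked. The 4 Cdc20 probes lie between -0.78 and -0.34, and the Top2a probes lie on both sides of 0, at -0.31 and 0.51.

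The replication and mitosis members had nearly the same median difference, -0.0030 and -0.040, which is -0.037 for mitosis minus replication. Replication genes split into 2 higher, 5 lower and 14 that did not pass, and mitosis genes into 1 higher, 5 lower and 11. Other genes of the same processes, written down with earlier results of these data known, had medians that lay further apart. Of 39 other replication genes 36 were tested, and 13 were higher and 1 lower, with a median of 0.29 and 30 above 0. Of 57 other mitosis genes 48 were tested, and 7 were higher and 11 lower, with a median of -0.16 and 31 below 0. The shares that passed were 38.9% (replication) and 37.5% (mitosis), beside 43.7% of all tested genes (23.3% higher and 20.4% lower). Of all 8651 tested genes, 4595 were above 0 and 4056 below. Orc3, Topbp1 and Dtl, which had positive differences, were kept through the i2PS arrays alone, and none of them passed. Ube2c, which had a negative difference and did not pass, was kept through the E14TG2A arrays alone. These genes add nothing to the direction of their lists. No test was made of the medians, which are descriptions of lists.

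Rfc5, a subunit of the clamp loader, was higher by 1.11 ± 0.10 (limma adjusted p = 5.04e-05), a 2.17-fold difference. Pold2, the second subunit of polymerase delta, was higher by 1.10 ± 0.13 (limma adjusted p = 0.000255), and Pold3, another subunit, by 0.70 ± 0.11 (0.00122). Rpa2, a subunit of the single-strand binding complex, was the other replication gene that passed lower, by -0.41 ± 0.13 (limma adjusted p = 0.0276; SE, n = 3 and 3 throughout). Rpa2 no longer passed without E14TG2A replicate 1 or 2 or i2PS replicate 2 or 3 (0.0505 to 0.113), and the mean of its probes was -0.07.

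Among other mitosis genes the largest fall was that of Dlgap5, a spindle protein, at -1.14 ± 0.10 (limma adjusted p = 5.33e-05), 2.20-fold lower, or -0.71 as the mean of its probes. The kinetochore genes Zwint and Spc25 were lower by -0.92 ± 0.11 and -0.69 ± 0.12 (limma adjusted p = 0.000269 and 0.00159). Nuf2, of the same kinetochore complex as Spc25, was higher by 0.51 ± 0.13 (limma adjusted p = 0.0138), although not without i2PS replicate 3 (0.0653), and by 0.20 without background correction. Pbk, a mitotic kinase, and Bora, an activator of Aurora A, were higher by 0.87 ± 0.10 and 0.71 ± 0.12 (limma adjusted p = 0.000222 and 0.00181; SE, n = 3 and 3 throughout).

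**Figure D5:**
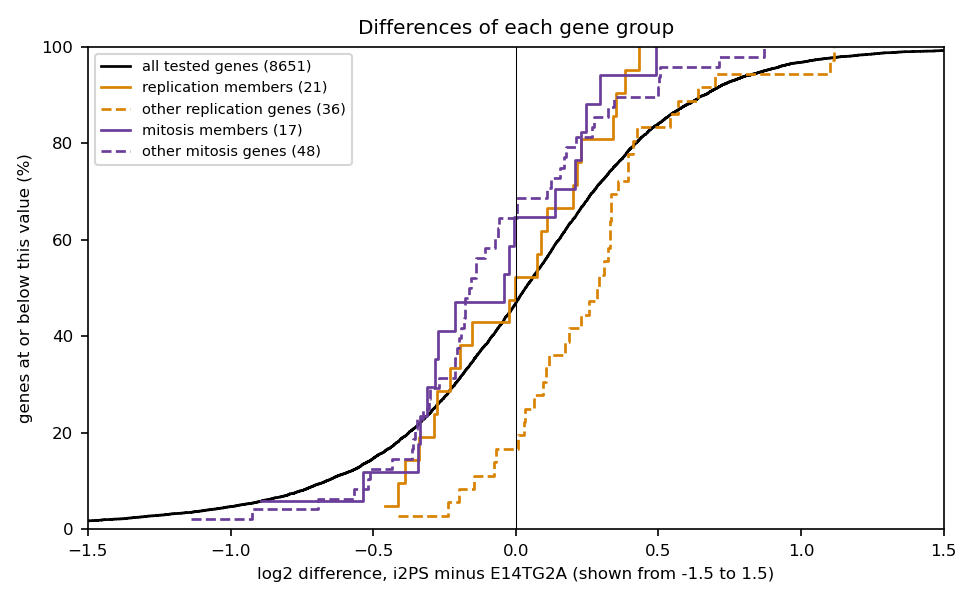
Cumulative curves of the differences, i2PS minus E14TG2A on the log2 scale, for all tested genes and, by class, for members and other genes of the same processes. Each curve gives the percentage of genes at or below a difference. The medians of the members are -0.0030 (replication) and -0.040 (mitosis), and those of the other genes 0.29 and -0.16.

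The other replication genes carried E2F letters in 34.4% and CHR letters in 21.9% of their promoters, and the other mitosis genes in 10.9% and 69.6%. The members' shares, given above, run in the same order, with E2F letters more frequent in replication and CHR letters in mitosis promoters.

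Members that were not tested comprise 11 genes. Ccnb1 and Mki67 have no listed probe and were not analysed here. Bub1, Ccna2, Ccnb2, Cenpe, Gmnn, Nek2, Pola1 and Prim1 had 11 probes between them that were detected on no array of either line, with normalised values of 4.16 to 4.92. These include cyclin A2, cyclin B2, geminin and the polymerase alpha and primase subunits, so nothing can be said here of their levels. The probes of Orc2 were detected on at most 2 E14TG2A arrays and on no i2PS array.

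The spread between the 3 arrays of a line was measured as an SD per gene. The median SD was 0.105 in i2PS and 0.134 in E14TG2A cells for replication members, 0.151 and 0.136 for mitosis members, and 0.113 and 0.159 for all tested genes. Averaged over the mitosis members, each gene set against its own mean, the E14TG2A arrays stood at 0.0060, 0.075 and 0.064 and the i2PS arrays at -0.039, -0.050 and -0.056, without overlap. Ttk, kept through the E14TG2A arrays alone, is among these genes. The medians over the same genes did overlap, at -0.0045, 0.074 and 0.042 against 0.0060, -0.088 and -0.095. The replication members stood at -0.029, 0.028 and 0.026 against 0.070, -0.030 and -0.065, and the lines overlapped. Replicate 1 of E14TG2A was below the mean of replicates 2 and 3 for 12 of 17 mitosis members and 10 of 21 replication members. The same held for 4829 of all 8651 tested genes. Without E14TG2A replicate 1, 2 replication members were higher and 6 lower, and 2 mitosis members higher and 7 lower. In that fit 47.6% of all tested genes passed, beside 43.7% with all arrays.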

How the data were processed

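Total RNA of 3 i2PS and 3 E14TG2A samples was measured on 1-colour Illumina bead arrays. The deposited table holds raw probe intensity and a detection p-value per probe and array, exported with GenomeStudio per the submitters' processing notes, its version not given in the sources used here. The authors' processed table holds linear intensity with medians of 96.7 on each array, and served as an alternative. It spans the same 45281 probes, and 0 columns of values were left unmapped. The scale of both is linear, and how the authors normalised theirs is not given in the sources used here.

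In R 4.3.3 with limma 3.58.1, intensities were background-corrected from the detection p-values, quantile-normalised and put on the log2 scale (neqc, offset 16). Probes that named 1 gene were kept if either line had detection p-values under 0.01 on each of its 3 arrays. The kept probe with the highest mean stood for a gene, and all 12841 kept probes were also fitted. Lines were compared with lmFit and eBayes, adjusted by Benjamini-Hochberg over all 8651 genes (threshold 0.05), and the fit was tested on simulated data. Platform names were updated through RefSeq (GRCm38.p6): 34807 probes by gene number, 11 by accession and 67 by symbol, while 18 had several symbols and 10378 were unlisted. No tested member was undetected on all arrays of a line at the probe that stands for it, and the number of arrays limits the precision. Promoters are RefSeq's, 250 bases before to 50 after the start.

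The members and lists were chosen with earlier results of these data known. Values of every array are printed for members that passed (at most 6 per direction and class) and for members whose probes took opposite sides with at least 1 passing, and for a few others chosen after their values were seen. Of the other replication and mitosis genes, up to 3 per direction with the largest difference are named. The alternatives were other background corrections, normalisations, filters, probe rules, moderation, weights for arrays, a block for the replicate number, and single arrays left out.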

Additional observations from a re-analysis of the deposited data

How the results depend on the processing

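Of the 13 members that passed, 13 kept their call with an offset of 50, without background correction, in the authors' table, with detection on all 6 arrays and with a variance trend, 12 with cyclic loess and with array weights, 10 with no filter and with the mean of a gene's probes, and 4 to 12 with 1 array left out. Ccnf, Kif11, Cenpa and Mcm10 passed in 16 of 17 alternatives, the exception being equal medians. With equal medians, 634 genes passed, the members gave 0 higher and 0 lower in either class (1 member had an unadjusted p under 0.05), the medians were 0.187 (replication) and 0.149 (mitosis), 0 member probes passed, and the other genes gave 2 higher and 0 lower (replication) and 1 higher and 0 lower (mitosis, with 2 lower at an unadjusted p under 0.05). There the median of all genes was 0.187 in place of 0.033. The count of higher mitosis members was 2 with an offset of 50, without background correction, in the authors' table, with detection on all 6 arrays and with a variance trend. Array weights gave 3 higher and 8 lower mitosis members, a mitosis median of -0.099, 32 member probes and 18 lower other mitosis genes. With these weights 55.1% of all tested genes passed, beside 43.7% in the main fit. Cyclic loess left 1 higher replication member, and no filter left 1, with 3 lower mitosis members, 0 lower other replication genes (1 at an unadjusted p under 0.05) and 4 higher other mitosis genes. The mean of a gene's probes left 3 lower replication members, a replication median of -0.058 and 0 lower other replication genes (0 unadjusted), and turned Top2a to 0.098 (limma adjusted p = 0.486), since its probes lie on opposite sides. Other causes were not tested.

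With 1 array left out, the counts ran from 2763 to 4302 for all genes, 9 to 23 for member probes, 1 to 3 higher and 0 to 6 lower for replication members, 1 to 2 higher and 2 to 7 lower for mitosis members, 6 to 13 higher and 0 to 1 lower for other replication genes, and 3 to 7 higher and 7 to 11 lower for other mitosis genes. The count of 0 lower replication members came without i2PS replicate 3, where 4 had an unadjusted p under 0.05. The medians ran from -0.042 to 0.040 (replication) and from -0.14 to -0.0064 (mitosis). Over all tested genes, deviations of same-numbered samples from their line means had correlations of 0.0089, -0.047 and 0.068. Those of differently numbered samples ran from -0.077 to 0.063. Whether same-numbered samples shared a batch was not tested. With the replicate block 8 of the 13 calls were kept, with 1 higher replication member and 2 lower mitosis members. In that fit 41.8% of all tested genes passed. A slide block was not run, since no slide is given in the sources used here. Signal over background limits Ttk, detected on 4 of 6 arrays, and the 8 members detected on none.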

Other observations

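Chromosomes 2 and 8 were picked after the values were seen, from all chromosomes with tested members. Whether position goes with the differences was not tested. Chromosome 2 holds 9 members. Of the 8 that were tested, Mcm10, Gins1, Pcna, Cdc25b, Bub1b and Mybl2 had a positive difference and Aurka and E2f1 a negative one. The difference of Gins1 was -0.02 without E14TG2A replicate 1. The median difference of the 8 was 0.27 on the log2 scale, beside 0.014 for the 673 tested genes of that chromosome. The 4 tested members on chromosome 8 (Orc6, Cdt1, Mcm5 and Gins2) had a median of -0.26, beside 0.11 for all tested genes there, and Cdt1 was the positive one.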
